A study of Mus musculus with 16 samples.

Results

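MHC class II genes make the molecules that show peptides to CD4+ T cells, and their RNA was followed here in normal and leukemic blood stem cells of the mouse. The 10 genes described are Cd74, H2-Aa, H2-Ab1, H2-Eb1, H2-DMa, H2-DMb1, H2-DMb2, H2-Oa, H2-Ob and Ciita, out of 26595 features in the table of the CD93 experiment and 36930 in that of the drug experiment. They were chosen by name for their role in antigen presentation and selected on the RPKM values of all 6 groups in both experiments, which were already known. Every level and difference of these 10 genes below is therefore a description and not a test. Where the fit over all genes called some of the 10, the count is given beside the share of all genes, and nothing is read from it. All 10 were found by symbol in both tables and passed the filter for low values in both.

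The series compared bulk RNA of LSK cells, the lineage-negative Sca-1+ c-Kit+ marrow fraction that holds blood stem cells, with that of leukemia stem cells (LSCs), sorted from mice with a chronic myeloid leukemia (CML) model. The CD93 experiment had CD93-deficient LSCs (KO LSC, 3 libraries), CD93-proficient LSCs (WT LSC, 3 libraries), and naive LSK cells of CD93-deficient (KO LSK, 2 libraries) and CD93-proficient mice (WT LSK, 2 libraries). The drug experiment had WT LSCs of CML mice given the dopamine receptor antagonist metoclopramide in vivo at 10 mg/kg (MCP LSC, 3 libraries) or vehicle (Veh LSC, 3 libraries). All mice are labelled with a postnatal age of 8 weeks, and C57BL/6 is the strain where one is given, which it is not for the KO samples. In every LSC group, KO and WT, LSK cells transduced with BCR-ABL1-GFP were injected into syngeneic BL/6 mice that were not irradiated, so the host marrow remained, and the hosts of CD93-deficient leukemia were CD93-proficient. The series title ties metoclopramide to signalling through CD93, a surface receptor, in the self-renewal of CML stem cells.

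A class II molecule pairs an alpha and a beta chain, which in the endoplasmic reticulum bind the invariant chain, the product of Cd74. In late endosomes cathepsins cut the invariant chain down to a short fragment, and H2-DM (H2-DMa with H2-DMb1 or H2-DMb2) exchanges this fragment for an antigen peptide, while H2-O (H2-Oa with H2-Ob) restrains H2-DM. CIITA, the coactivator encoded by Ciita, binds no DNA itself and acts on class II promoters through the RFX complex (Rfx5, Rfxap, Rfxank), CREB and the NF-Y complex (Nfya, Nfyb, Nfyc). Class II is best known on dendritic cells, B cells and macrophages, and it has also been described on blood stem and progenitor cells.

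Depth and cell identity set the limits for the CD93 experiment. Features above the lowest value of the table numbered 1230 to 2967 in the KO LSC libraries, 5525 to 7956 in WT LSC and 14279 to 14906 in LSK cells, against 15587 to 16447 in MCP and 19554 to 20014 in Veh LSCs. The number of reads was not available, and the spacing of low values, read by a rule set after the values were seen, gave an estimate of 2.74 to 3.24 reads, in units of 1e+06, for WT LSC and 5.42 to 7.69 for LSK libraries and none for the others. Cd93 itself, the deleted gene, was at the lowest value, 44.3 and the lowest value in the 3 KO LSC libraries, and at the lowest value, the lowest value and 5.74 RPKM in WT LSC. The KO LSC libraries are therefore named by their label, since library 2 goes against it. In LSK cells Cd93 was 1.01 and 2.10 RPKM in KO and 5.34 and 22.9 RPKM in WT. Of 10 LSK marker genes, 9 stood at the lowest value in each KO LSC library and 4 to 7 in each WT LSC library, whereas none did in the LSK, MCP and Veh libraries. Values are RPKM, reads per kilobase of transcript and per 1e+06 mapped reads, and the lowest value, 0.003 in the CD93 table and 0.001 in the drug table, stands for no signal. The tables were normalized separately, so levels are compared only within an experiment.

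In the genome, 8 of the 10 genes lie together on chromosome 17, between H2-Oa (chr17:34092340-34095234, plus strand, GRCm38) and H2-Eb1 (chr17:34305867-34316674, plus strand). Ciita lies on chromosome 16 (chr16:10480059-10528418, plus strand) and Cd74 on another chromosome, given with its values. Some neighbours overlap them on the other strand, and the SMART-Seq v4 kit does not mark strand. Counted over whole gene spans, introns included, H2-DMa shares 3094 bases with Brd2, H2-Oa 2895 with the antisense RNA BC051537 and Ciita 25888 with Dexi. Overlap of exons was not computed, so how far these values mix is not known. In WT LSC library 1, Brd2 was 114.4 RPKM while H2-DMa was at the lowest value. H2-DMb1 and H2-DMb2 are near copies: 26.64% of the 50-base words of the longest H2-DMb1 transcript and 25.17% of those of H2-DMb2 occur in the other gene, so their values are uncertain as separate genes.

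Class II promoters are known for an X box, bound by RFX and CREB, followed by a Y box, bound by NF-Y. RefSeq promoter windows (GRCm38.p6, from 250 bases before to 50 bases after the gene start) were given for 7 members: H2-Aa, H2-Eb1, H2-DMa, H2-DMb1, H2-DMb2, H2-Oa and H2-Ob. For the X box the letters AAC, any 3 bases and TGATGC, written down after these windows had been read, occurred on either strand in 0.128% of all 32851 windows of this length. The Y box letters TGATTGG occurred in 7.82% and the CREB letters TGACGTCA in 1.79%. The X letters followed by the Y letters 10 to 30 bases further on occurred in 4 windows (0.0122%), which were those of H2-DMb1, H2-DMb2, H2-Eb1 and H2-Ob. H2-Aa held the CREB and Y letters, H2-Oa the Y letters alone, and H2-DMa none of them. The stretches below end shortly after the Y letters and are shown to let the shared spacing be seen, with the matched letters in capitals and the gene's strand read 5′ to 3′. They come from chr17:34305746-34305820 (H2-Eb1, plus strand), chr17:34238786-34238860 (H2-Ob, plus strand), chr17:34145097-34145171 (H2-DMb2, plus strand) and chr17:34287859-34287933 (H2-Aa, minus strand).
H2-Eb1: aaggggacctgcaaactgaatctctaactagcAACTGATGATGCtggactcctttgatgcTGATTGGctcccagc
H2-Ob: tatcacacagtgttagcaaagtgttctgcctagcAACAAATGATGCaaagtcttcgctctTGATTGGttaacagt
H2-DMb2: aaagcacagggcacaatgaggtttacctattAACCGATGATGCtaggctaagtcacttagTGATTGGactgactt
H2-Aa: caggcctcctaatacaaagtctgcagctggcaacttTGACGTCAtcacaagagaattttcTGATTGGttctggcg
Between the end of the X letters and the start of the Y letters lay 16 bases in H2-Eb1, 14 in H2-Ob and 17 in H2-DMb2, and in H2-Aa 16 bases lay between the CREB and the Y letters. The Y letters began 61 bases before the gene start in H2-Eb1, 59 in H2-Ob, 92 in H2-DMb2 and 50 in H2-Aa. A match describes these letters and shows no binding.

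Metoclopramide-treated LSCs had less class II RNA than vehicle-treated LSCs for each of the 10 genes. The summed RPKM of the 10 was 95.7, 62.3 and 79.8 in MCP LSCs, against 165.6, 177.7 and 159.0 in Veh LSCs. For all 10 genes every MCP library lay below every Veh library, an arrangement found for 25.6% of all 14005 tested genes. The median log2 difference was -1.14 over the 10 genes and -0.18 over all tested genes. The MCP libraries also had fewer features above the lowest value, 15587 to 16447 against 19554 to 20014 in Veh, and the part of this was not tested. In bulk RNA, fewer cells of a type and less RNA per cell cannot be told apart.

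**Figure D1:**
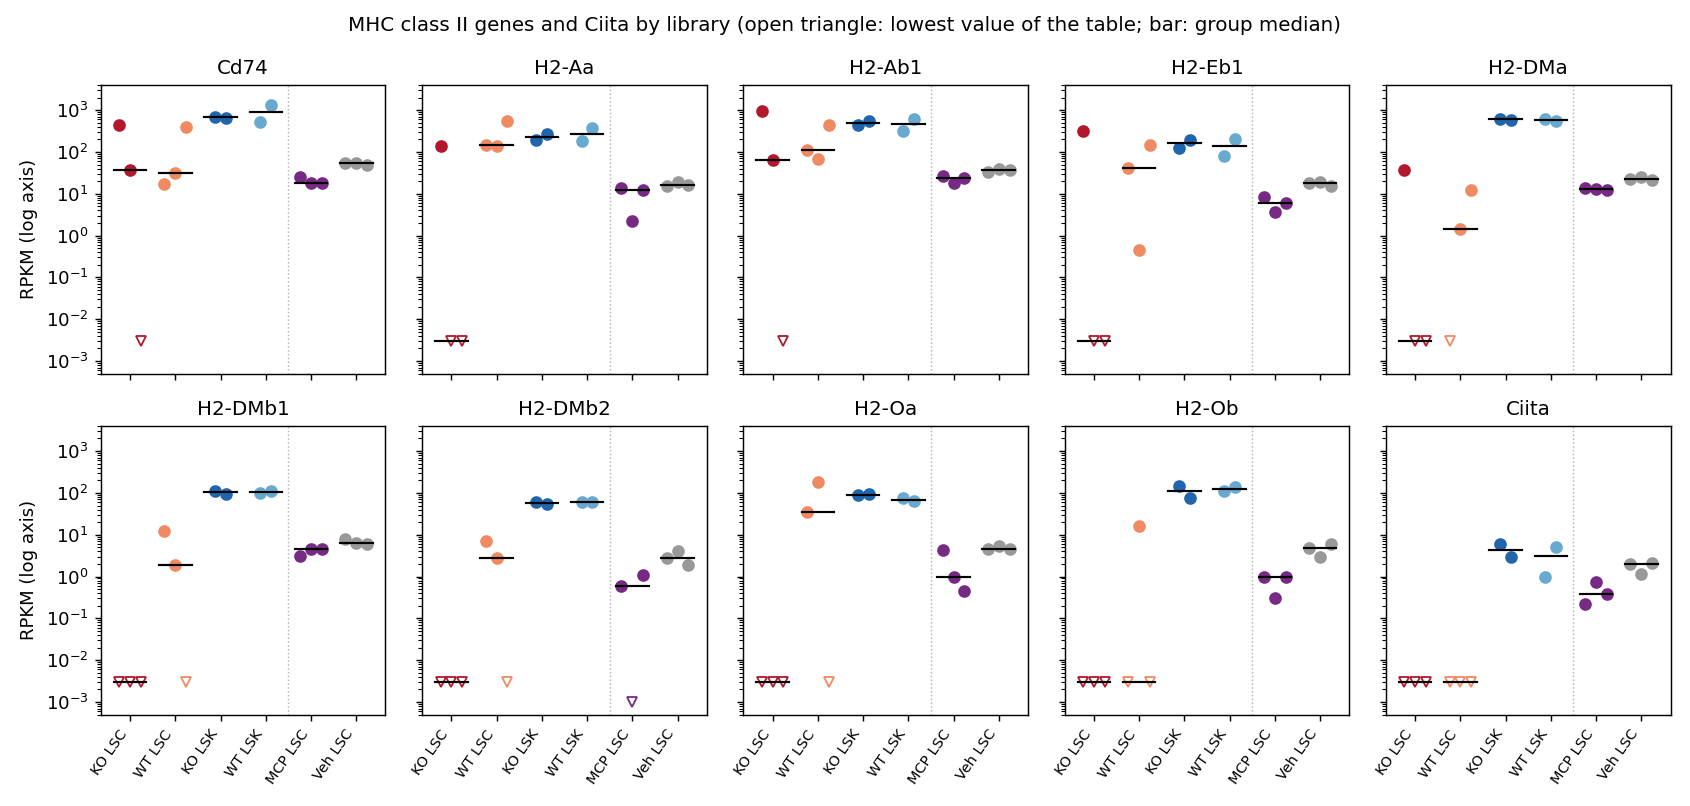
Level of each of the 10 genes in RPKM on a log axis, with 1 point per library, by group; open triangles mark the lowest value of the table, bars mark group medians, and the dotted line parts the 2 separately normalized experiments. In the drug experiment each gene's 3 MCP points lie below its 3 Veh points, and in the CD93 experiment H2-DMa, H2-DMb1, H2-DMb2, H2-Ob, Cd74 and Ciita lie lower in WT LSC than in WT LSK libraries.

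Among the genes of the presenting molecule, Cd74, the invariant chain, stood highest in the Veh libraries; its gene lies at chr18:60803848-60812652 (plus strand, GRCm38). Cd74 was 25.0, 18.0 and 18.1 RPKM in MCP LSCs, against 55.6, 54.9 and 48.9 RPKM in Veh LSCs, a log2 difference of -1.35 (SE 0.15) on the log2(RPKM + 1) scale used throughout. The 3 MCP values lay close together and far from the Veh values. H2-Ab1, the beta chain of I-A, was 26.0, 18.3 and 23.9 RPKM in MCP and 32.6, 39.1 and 36.4 RPKM in Veh LSCs, with a smaller log2 difference of -0.65 (SE 0.15). H2-Aa, its alpha chain, was 13.5, 2.22 and 12.2 RPKM in MCP and 15.4, 19.4 and 16.3 RPKM in Veh LSCs. MCP library 2 was low among the MCP libraries for H2-Aa, and the log2 difference of -1.08 had a wide SE of 0.54. H2-Eb1, the beta chain of I-E, was 8.32, 3.68 and 6.16 RPKM in MCP and 17.8, 18.8 and 15.1 RPKM in Veh LSCs, a log2 difference of -1.42 (SE 0.27). Mice of the BL/6 haplotype lack a working I-E alpha chain gene, and H2-Ea-ps stood at the lowest value in all 16 libraries.

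The peptide-loading genes were also lower in MCP LSCs. H2-DMa was 13.5, 13.3 and 12.0 RPKM in MCP and 22.2, 25.4 and 21.9 RPKM in Veh LSCs, a log2 difference of -0.79 (SE 0.13). H2-DMb1, a beta chain of H2-DM, was 3.16, 4.66 and 4.45 RPKM in MCP and 7.96, 6.49 and 6.01 RPKM in Veh LSCs. H2-DMb2 was 0.601 RPKM, the lowest value and 1.11 RPKM in MCP, and 2.79, 4.17 and 1.85 RPKM in Veh LSCs. Both H2-DM beta chains are low, and H2-DMb2 lies near the limit of detection in MCP LSCs. The inhibitor pair differed in the same direction: H2-Oa was 4.39, 0.972 and 0.464 RPKM in MCP and 4.46, 5.35 and 4.58 RPKM in Veh LSCs, with MCP library 1 close to the lowest Veh library. H2-Ob was 0.975, 0.315 and 0.951 RPKM in MCP and 4.74, 2.94 and 5.95 RPKM in Veh LSCs, with a log2 difference of -1.65 (SE 0.32). That was the largest in size of the 10 at the pseudocount of 1, but H2-DMb2 was larger with a pseudocount of 0.1 (-2.71 against -2.52) and without Veh library 3 (-1.56 against -1.47), and H2-Oa without MCP library 1 (-1.77 against -1.75). Ciita, the coactivator, was 0.220, 0.756 and 0.381 RPKM in MCP and 1.99, 1.13 and 2.09 RPKM in Veh LSCs, low in all 6 libraries, with a log2 difference of -0.91 (SE 0.29). The fit over all genes, limma with Benjamini-Hochberg adjustment, called 1.8% of genes lower and 4 of the 10, and nothing is read from this count. It was 0 when any 1 Veh library was left out, and 1 with a block for replicate number or under quantile normalization. All 10 differences, negative like 71.8% of all tested genes, stayed so in every alternative that was run.

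Within a library, some ratios between the genes differed too, and how often the ratios of other genes part in this way was not computed. The ratio of Cd74 to H2-Ab1 was 0.961, 0.982 and 0.758 in MCP LSCs and 1.70, 1.40 and 1.34 in Veh LSCs, so that the ranges did not overlap. The ratio of H2-Eb1 to H2-Ab1 was 0.319, 0.201 and 0.258 in MCP and 0.546, 0.480 and 0.414 in Veh LSCs, again without overlap. H2-DMa relative to H2-Ab1 overlapped, at 0.519, 0.728 and 0.503 in MCP and 0.680, 0.650 and 0.601 in Veh LSCs. So did H2-Aa relative to H2-Ab1, at 0.5175, 0.1207 and 0.5128 in MCP and 0.4724, 0.4952 and 0.4464 in Veh LSCs. By level per length, the Veh libraries ranked Cd74 first and H2-Ab1 second without overlap, then H2-DMa, whose 3 values lay above those of H2-Eb1 and H2-Aa, which overlapped each other. In the MCP libraries the values of Cd74 and H2-Ab1 overlapped, with H2-Ab1 above Cd74 within each library.

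**Figure D2:**
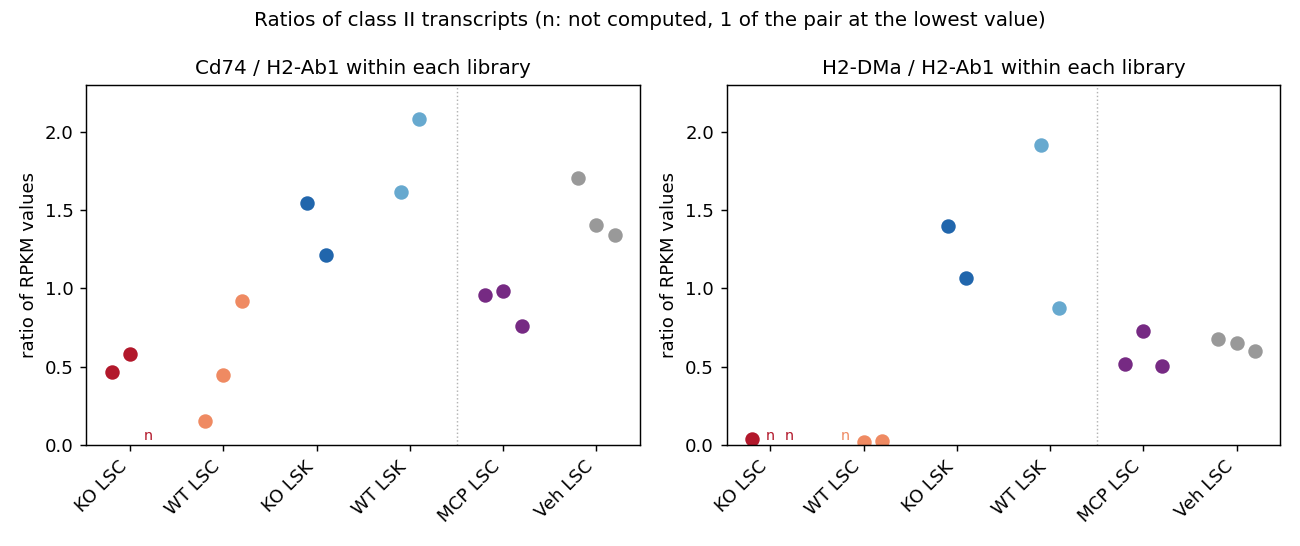
Ratio of Cd74 (left) and of H2-DMa (right) to H2-Ab1, computed from RPKM within each library, with 1 point per library on a linear axis; n marks a library where 1 of the pair was at the lowest value. The Cd74 ratio is 0.758 to 0.982 in the MCP libraries, below the 1.34 to 1.70 of the Veh libraries, and in the CD93 experiment both ratios are higher in LSK libraries than in LSC libraries.

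Genes that act upstream or beside class II mostly did not pass the test between MCP and Veh LSCs. Of 21 tested regulators of class II and Ciita, 1 fell and none rose: Creb1, which encodes CREB, averaged 40.9 RPKM in MCP and 74.1 RPKM in Veh LSCs (log2 difference -0.86, SE 0.16, adjusted p = 0.0440 by limma). That call ended, among other settings, when any 1 Veh library was left out, with adjusted p up to 0.185 over all alternatives. The RFX subunits did not pass: Rfx5 was 10.5, 6.34 and 11.7 RPKM in MCP and 13.3, 14.6 and 14.7 RPKM in Veh LSCs (adjusted p = 0.195), and Rfxap and Rfxank had log2 differences of 0.07 and 0.14. Nfya, Nfyb and Nfyc, the NF-Y subunits, had log2 differences of -0.18, -0.18 and -0.20, each near the median of all genes and none passing.

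None of 7 tested helper genes passed, although all 7 differences were negative. Ctss, the cathepsin that makes the last cuts in the invariant chain, was 5.18, 11.9 and 9.14 RPKM in MCP and 18.1, 19.5 and 16.5 RPKM in Veh LSCs, without overlap (log2 difference -1.03, SE 0.27, adjusted p = 0.0891). None of the 4 tested CD74 partners passed, and Mif, a ligand of CD74, averaged 186.4 RPKM in both groups (log2 difference -0.01, SE 0.12). Cd44, which pairs with CD74 as a receptor for MIF, had a log2 difference of -0.25 (adjusted p = 0.217). None of 4 tested costimulatory genes and none of 5 tested T and NK cell markers passed.

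MHC class I presentation, the pathway that serves CD8+ T cells, gave smaller differences. None of its 13 genes passed, and their median log2 difference was -0.14. Nlrc5, the class I counterpart of Ciita, averaged 19.7 RPKM in MCP and 25.4 RPKM in Veh LSCs (log2 difference -0.35, SE 0.12, adjusted p = 0.158). On chromosome 17, Psmb9, Tap1, Psmb8 and Tap2, genes for immunoproteasome subunits and for the peptide transporter of class I, lie between the H2-DM genes and H2-Ob and were looked at for this position after their values were seen. Psmb9 averaged 44.8 RPKM in MCP and 44.3 RPKM in Veh LSCs, and Psmb8 averaged 224.3 and 229.1 RPKM. Tap1 had the largest difference of the 4 in size (log2 difference -0.42, SE 0.09, adjusted p = 0.0588) and Tap2 had -0.16 (adjusted p = 0.300). The class II genes on either side, H2-DMb1 and H2-Ob, had log2 differences of -0.63 and -1.65. That class II and class I differ in this was not tested.

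**Figure D3:**
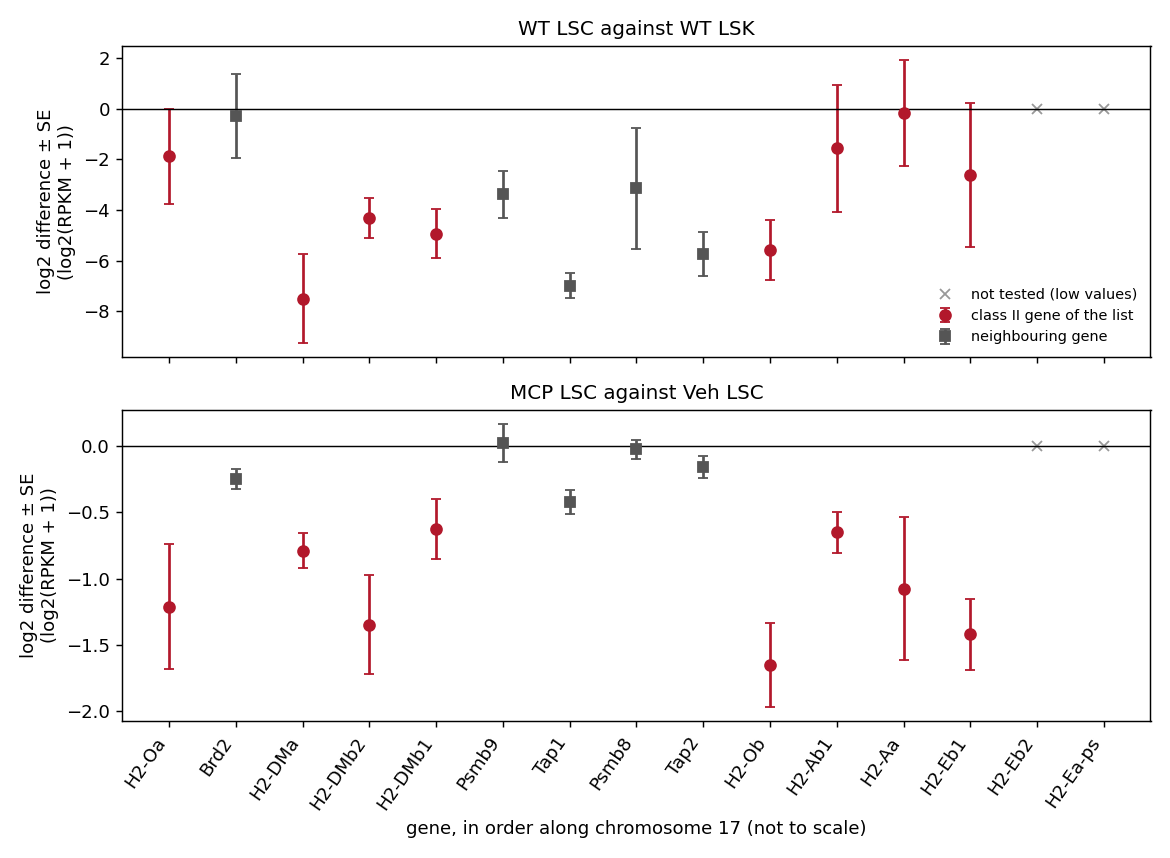
Log2 difference with its SE for genes in their order along the class II region, WT LSC minus WT LSK (top) and MCP minus Veh LSC (bottom); circles are class II genes of the list, squares their neighbours, and crosses genes too low to be tested. In the lower panel the class II genes lie between -0.63 and -1.65 and the neighbours between -0.42 and 0.02. In the upper panel the class II genes lie between -0.18 and -7.51. There the neighbours Tap1, Tap2, Psmb9, Psmb8 and Brd2 lie at -6.99, -5.74, -3.38, -3.15 and -0.31.

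Markers of cells that are rich in class II were measured in the same libraries. The 11 dendritic cell markers summed to 11.2 to 21.1 RPKM in MCP and 17.8 to 25.8 RPKM in Veh LSCs; none of the 5 tested passed, and Xcr1 and Cd209a were at the lowest value in all MCP libraries. The 13 B lineage markers summed to 2.13 to 4.30 RPKM in MCP and 5.17 to 8.28 RPKM in Veh LSCs, without overlap; none of the 2 tested passed, and Pax5, Ms4a1 and Vpreb3 were at the lowest value in all 6 libraries. The 14 macrophage and monocyte markers summed to 79.1 to 117.3 RPKM in MCP and 92.8 to 106.6 RPKM in Veh LSCs. Of these, 11 were tested, and 7 of the 11 had a negative log2 difference, as 71.8% of all tested genes did. Csf1r, the receptor for macrophage growth factor, alone passed and fell (mean 1.15 RPKM in MCP and 5.47 RPKM in Veh LSCs, adjusted p = 0.0322 by limma). C1qb, a complement gene of macrophages, was at the lowest value in all MCP libraries and averaged 1.25 RPKM in Veh LSCs. These 2 genes do not stand for the list, whose sums overlapped. The call of Csf1r ended when any 1 Veh library was left out. The part of such cells in the class II levels was not tested.

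Genes of 2 other marker lists passed the test between MCP and Veh LSCs. Of 9 tested neutrophil markers 5 rose (0.521% of all genes did), among them Elane, Ctsg, Prtn3 and Mpo, granule enzymes of myeloid precursors; Elane averaged 899.1 RPKM in MCP and 489.3 RPKM in Veh LSCs (log2 difference 0.88, SE 0.07, adjusted p = 0.00286). Elane alone of the 5 passed with the replicate block, without Veh library 1 and without Veh library 3. Of 10 LSK markers 3 fell (1.8% of all genes did): Meis1, Slamf1 and Cd34. Meis1, a stem cell transcription factor, averaged 22.8 RPKM in MCP and 48.8 RPKM in Veh LSCs (log2 difference -1.07, SE 0.11, adjusted p = 0.00903). All 3 LSK calls ended with the replicate block (Meis1 adjusted p = 0.0546) and without Veh library 3 (Meis1 adjusted p = 0.0681), and those of Slamf1 and Cd34 also without Veh library 1 or 2. The part of these shifts in the class II levels was not tested either.

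In the CD93 experiment, WT LSCs had far less RNA of the H2-DM genes and H2-Ob than naive WT LSK cells, while H2-Aa reached the same range. Naive LSK cells carried all 10 class II genes in every library: the sum was 2041.2 and 3415.5 RPKM in WT LSK and 2460.0 and 2583.7 RPKM in KO LSK. In WT LSCs the sum was 372.0, 446.7 and 1537.0 RPKM. All 10 log2 differences were negative (83.2% of all tested genes), except that H2-Aa, H2-Oa and Ciita turned positive under quantile normalization, and 1 of the 10 did with a replicate block and in 4 of the 5 fits that left out a library. Their median was -3.18, against -1.94 over all tested genes, a general shift that quantile normalization brings to 0.23. For 6 of the 10 (Cd74, H2-DMa, H2-DMb1, H2-DMb2, H2-Ob and Ciita) all WT LSC libraries lay below both WT LSK libraries, which held for 56.3% of all tested genes. The fit called 42.3% of all genes lower and 5 of the 10, and with these shares nothing is read from either count. Ciita and H2-Ob are in both counts, but they reached 1 RPKM in fewer than 2 LSC libraries. They were tested only because the LSK libraries let them pass the filter, a selection that favours lower values in WT LSC.

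H2-DMa stood out by its level: 0.003, 1.40 and 12.2 RPKM in WT LSC, against 609.1 and 543.1 RPKM in WT LSK (log2 difference -7.51, SE 1.76). In WT LSK library 1 H2-DMa exceeded the invariant chain, whereas in WT LSCs it was at most 0.0285 of H2-Ab1, and its overlapping neighbour Brd2 averaged 117.4 RPKM in WT LSC and 146.2 RPKM in WT LSK. H2-DMb1 was 12.4, 1.86 and 0.003 RPKM in WT LSC and 97.0 and 108.2 RPKM in WT LSK. H2-DMb2 was 7.002, 2.79 and 0.003 RPKM in WT LSC and 59.996 and 62.2 RPKM in WT LSK. Library 3 of WT LSC, which had the fewest features of the 3, listed both beta chains at the lowest value. The inhibitor H2-Ob was 0.003, 16.1 and 0.003 RPKM in WT LSC and 108.6 and 139.5 RPKM in WT LSK. Its partner H2-Oa was 35.7, 183.9 and 0.003 RPKM in WT LSC and 75.7 and 63.3 RPKM in WT LSK, so the groups overlapped.

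Both chains of I-A, H2-Aa and H2-Ab1, stood above the H2-DM genes and H2-Ob in each WT LSC library. H2-Aa was 148.6, 139.3 and 549.1 RPKM in WT LSC and 177.7 and 367.6 RPKM in WT LSK, with overlap and a log2 difference of -0.18 (SE 2.10). H2-Ab1 was 110.8, 69.6 and 430.3 RPKM in WT LSC and 318.3 and 622.8 RPKM in WT LSK, and these overlapped as well. H2-Eb1 was 40.3, 0.460 and 149.8 RPKM in WT LSC and 78.6 and 206.5 RPKM in WT LSK. Cd74 was 17.3, 31.3 and 395.6 RPKM in WT LSC and 515.3 and 1297.2 RPKM in WT LSK, without overlap (log2 difference -3.73, SE 2.45). WT LSC library 3 was the highest of its group for all 4 of these genes. Ciita was at the lowest value in all 3 WT LSC libraries and was 0.989 and 5.13 RPKM in WT LSK.

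Ratios within a library differed from gene to gene, and of the H2-DM and H2-O genes only H2-DMa was set against H2-Ab1. Cd74 relative to H2-Ab1 was 0.156, 0.450 and 0.919 in WT LSC and 1.62 and 2.08 in WT LSK, and H2-DMa relative to H2-Ab1 was 0.0202 and 0.0285 in WT LSC libraries 2 and 3, with no value in library 1, against 1.91 and 0.872 in WT LSK. The ratio of H2-Aa to H2-Ab1 went the other way, with 1.34, 2.002 and 1.28 in WT LSC and 0.558 and 0.590 in WT LSK. That of H2-Eb1 to H2-Ab1 overlapped, at 0.364, 0.0066 and 0.348 in WT LSC and 0.247 and 0.332 in WT LSK. H2-Aa was the highest of the 10 genes in WT LSC libraries 1 and 3, and H2-Oa was the highest in library 2. In WT LSK, H2-DMa led in library 1 and Cd74 in library 2.

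The regulators of class II were tested in the same comparison, and 9 of 22 fell while none rose, a share close to the 42.3% of all genes called lower, and their median of -1.73 on the log2 scale lay near the -1.94 of all genes. Under quantile normalization 3 of the 9 (Carm1, Jak2 and Socs1) had a positive difference. Nfyb and Nfyc, subunits of NF-Y, were at the lowest value in all 3 WT LSC libraries and averaged 65.0 and 15.2 RPKM in WT LSK (adjusted p = 4.52e-06 and 6.49e-06). Rfxap and Nfya were likewise at the lowest value in WT LSC and averaged 14.4 and 8.20 RPKM in WT LSK (adjusted p = 6.60e-05 and 0.000215), and both calls ended under quantile normalization (adjusted p = 0.785 and 0.548). Nfya, Nfyb, Nfyc and Rfxap stayed below 1 RPKM in all LSC libraries, so they passed the filter through the LSK libraries alone. Their calls could only be lower, and nothing is read from them. Rfx5 was 1.47, 34.4 and 0.003 RPKM in WT LSC and 4.35 and 14.1 RPKM in WT LSK, and Rfxank averaged 48.2 and 37.7 RPKM; neither passed. The cathepsins split: Ctsl, the thymic invariant chain protease, fell (mean 0.646 RPKM in WT LSC and 108.3 RPKM in WT LSK, adjusted p = 3.61e-05), while Ctss was 562.8, 834.0 and 1411.2 RPKM in WT LSC and 240.1 and 220.0 RPKM in WT LSK and did not pass (adjusted p = 0.192). Cd83 and Lgmn also fell among the 8 tested helpers, with both calls lost under quantile normalization. Of 5 tested CD74 partners only Cd44 passed (adjusted p = 0.0303), its log2 difference of -2.61 turning to 0.18 under quantile normalization, and Mif averaged 733.5 RPKM in WT LSC and 684.7 RPKM in WT LSK without passing.

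Of 13 class I genes 6 fell in WT LSCs and none rose, a share close to the 42.3% of all genes called lower. Their median log2 difference was -3.38, against -1.94 over all genes. Tap1 averaged 0.255 RPKM in WT LSC and 159.3 RPKM in WT LSK (log2 difference -6.99, SE 0.49, adjusted p = 1.14e-05), and H2-D1, a class I heavy chain, averaged 241.0 and 2704.2 RPKM (adjusted p = 0.00214). Tap2 and Tapbp, which load class I molecules, fell as well (adjusted p = 0.000981 and 0.000300). Tap1, Tap2, Tapbp and H2-D1 kept their direction and call under every alternative. Tap1 was below 1 RPKM in every LSC library and passed the filter through the LSK libraries alone.

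Marker lists were set against the 42.3% of all genes called lower and the 1.45% called higher between WT LSCs and WT LSK cells. The dendritic cell markers summed to 0.907 to 103.2 RPKM in WT LSC and 141.8 to 189.2 RPKM in WT LSK, and 8 of 10 tested fell, among them Siglech, a marker of plasmacytoid dendritic cells at the lowest value in all WT LSC libraries; 5 of the 8 turned to positive values under quantile normalization. The B lineage markers summed to 0.707 to 34.3 RPKM in WT LSC and 150.7 to 191.2 RPKM in WT LSK, and 5 of 9 tested fell, near the share of all genes, all 5 with a positive difference under quantile normalization; Pax5, the defining factor of B cells, was at the lowest value in all WT LSC and WT LSK libraries. The macrophage and monocyte markers ran the other way in sum, with 12390.7 to 25960.9 RPKM in WT LSC and 2320.1 to 3645.8 RPKM in WT LSK. Of their 14 genes 6 had a negative difference, and Apoe alone averaged 12021.9 RPKM in WT LSC. C1qb, C1qc and Apoe rose and Cx3cr1 fell. C1qb averaged 3837.2 RPKM in WT LSC and 495.4 RPKM in WT LSK (adjusted p = 0.00356 by limma), and Cx3cr1 turned positive under quantile normalization. Neutrophil markers rose in 7 of 11 cases, and 9 of 10 LSK markers fell, of which Slamf1 turned positive under quantile normalization. Of 10 T and NK cell markers 5 fell, again near the share of all genes, with Thy1 and Gzma positive under quantile normalization, and of 6 tested costimulatory genes Icosl and Pdcd1lg2 fell, both positive there. The part of these cells in the class II levels was not tested.

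**Figure D4:**
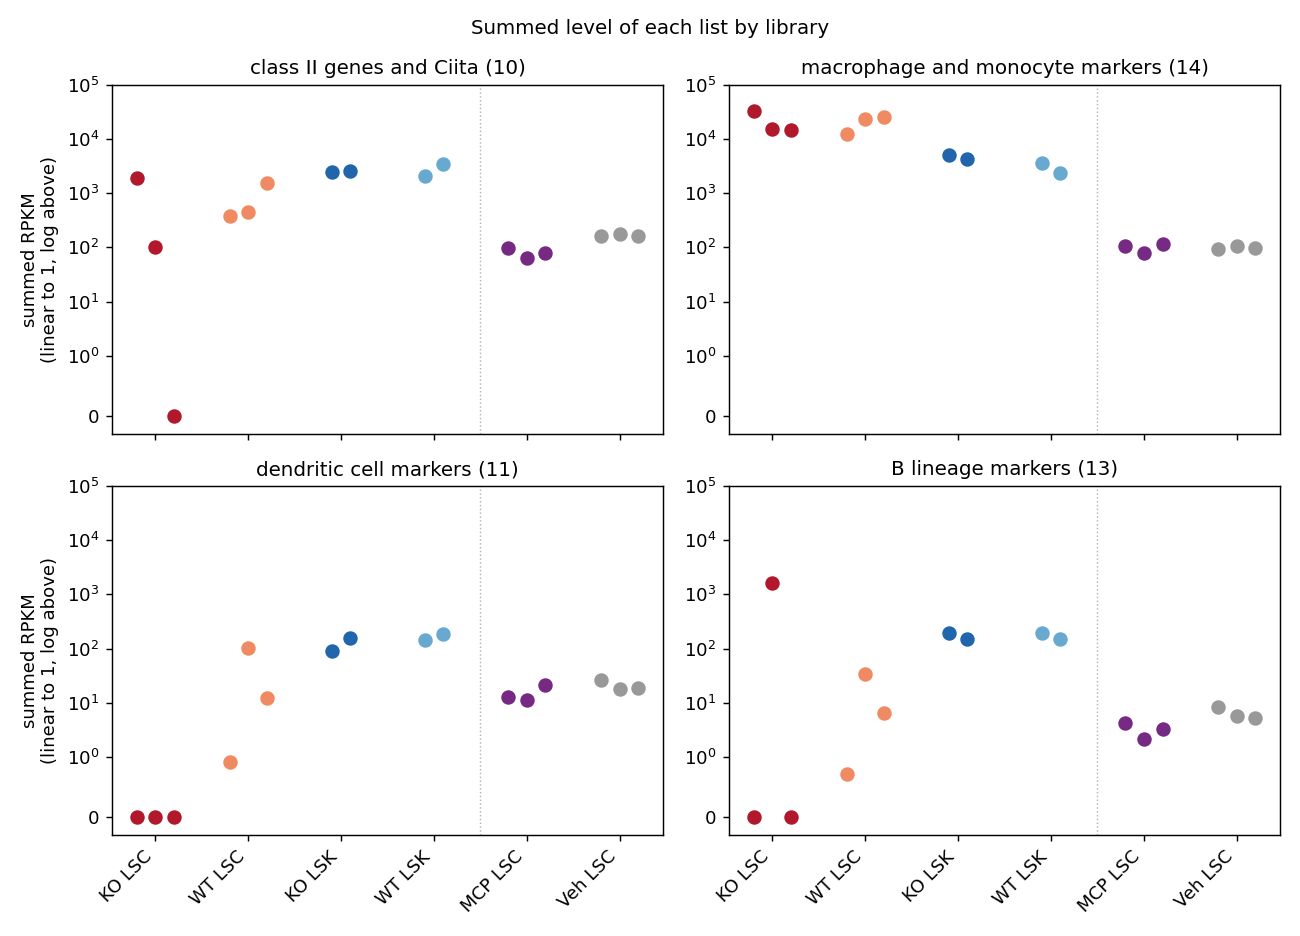
Summed RPKM of the 10 class II genes and of 3 marker lists in each library (1 point per library), by group, on an axis that is linear up to 1 and logarithmic above. In the CD93 experiment the macrophage sum is higher in the LSC libraries than in the LSK libraries while the dendritic cell sum is 0 in the KO LSC libraries; in the drug experiment the class II sum of each MCP library lies below that of each Veh library while the macrophage sums overlap.

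Between the libraries labelled KO LSC and the WT LSC libraries, class II RNA was too uneven to compare. KO LSC library 1 held 1908.7 RPKM over the 10 genes, library 2 held 103.7 RPKM and library 3 held none, against 372.0, 446.7 and 1537.0 RPKM in WT LSC. H2-Ab1, for example, was 964.9, 65.7 and 0.003 RPKM in KO LSC. Cd74 was 452.9, 38.0 and 0.003 RPKM in KO LSC. H2-Eb1 was 319.5 RPKM, H2-Aa 135.2 RPKM and H2-DMa 36.2 RPKM in KO LSC library 1, and all 3 were at the lowest value in the other two. The library with the most features above the lowest value, 2967, had the most class II RNA, and the library with the fewest, 1230, had none. H2-DMb1, H2-DMb2, H2-Oa, H2-Ob and Ciita had the lowest value in each of the 3 KO LSC libraries, and Ciita was so in all 3 WT LSC libraries as well.

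H2-Aa alone did not overlap, at 135.2, 0.003 and 0.003 RPKM in KO LSC and 148.6, 139.3 and 549.1 RPKM in WT LSC; this holds for 14.1% of all 13485 tested genes. None of the 10 genes was called, where limma called 8.81% of all genes at an adjusted p under 0.05. An unadjusted p under 0.05 was found for 2 of the 10 and for 21.1% of all genes, and nothing is read from this. Ciita, at the lowest value in both groups, passed the filter through the LSK libraries alone and could not be called. With only the compared groups in the fit 8 of the 10 were tested, and none was called, where 14.3% of all genes were. The count of class II genes called was 1 without KO LSC library 1, where 11.6% of all genes were called, and 3 without WT LSC library 3, where 15.4% were; nothing is read from these counts. Of the 132 genes in the surrounding lists, not all of them tested, 6 fell and none rose. Over all tested genes 8.81% were called, and nothing is read from this count. The 6 were Ctsb and Sppl2a, proteases of which Sppl2a clears the last fragment of the invariant chain, Irf8, Psmb9, S100a8 and Meis1. Sppl2a had the lowest value in each KO LSC library and averaged 72.5 RPKM in WT LSC (adjusted p = 0.00106), and it alone kept its call under quantile normalization (adjusted p = 0.0257). Irf8, a factor of dendritic cell and monocyte development, was also at the lowest value in KO LSC and averaged 30.3 RPKM in WT LSC (adjusted p = 0.00183). The dendritic cell markers summed to 0 in each KO LSC library, and 1 B lineage marker alone, in KO LSC library 2, gave 1594.3 RPKM. The macrophage and monocyte markers summed to 14683.7 to 32615.3 RPKM in KO LSC and 12390.7 to 25960.9 RPKM in WT LSC, and none of the 14 passed. The KO LSC libraries also had fewer features above the lowest value than the WT LSC libraries, and the part of this in the differences was not tested.

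In naive LSK cells the class II levels of KO and WT lay close together. The sums were 2460.0 and 2583.7 RPKM in KO LSK and 2041.2 and 3415.5 RPKM in WT LSK, and 9 of the 10 genes overlapped. Cd74 was 677.4 and 665.4 RPKM in KO LSK, which lay between the 515.3 and 1297.2 RPKM of WT LSK. H2-Aa was 192.9 and 270.2 RPKM, H2-Ab1 438.3 and 546.9 RPKM and H2-Eb1 127.2 and 196.8 RPKM in KO LSK. H2-DMa was 613.2 and 581.7 RPKM, H2-DMb1 112.2 and 95.5 RPKM and H2-DMb2 60.9 and 55.6 RPKM in KO LSK. All of these overlapped with WT LSK.

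H2-Oa was the exception: it was 87.5 and 93.4 RPKM in KO LSK and 75.7 and 63.3 RPKM in WT LSK, an order found for 14% of all tested genes, with a log2 difference of 0.38 (SE 2.04). H2-Ob was 144.5 and 75.3 RPKM in KO LSK, and Ciita was 5.89 and 2.93 RPKM, both overlapping WT LSK. None of the 10 was called, where limma called 1.83% of all genes, and none had an unadjusted p under 0.05, against 8.7% of all genes; the SE of these differences reached 3.11 for H2-Eb1 in a fit that shares its spread with the LSC libraries, so equality is not shown. Among the surrounding genes Socs1, a brake on interferon signalling, rose (27.3 and 18.8 RPKM in KO LSK, 2.96 and 1.27 RPKM in WT LSK, adjusted p = 0.00455), Thy1 rose (adjusted p = 0.0346) and Xcr1, a marker of one dendritic cell type, fell (adjusted p = 0.0390). These 3 were called out of 132 genes in the surrounding lists, not all of them tested, against 1.83% of all tested genes. Nothing is read from this count. All 3 calls were lost when the KO LSC libraries were left out of the fit and with a replicate block. The dendritic cell markers summed to 89.1 and 154.2 RPKM in KO LSK and 141.8 and 189.2 RPKM in WT LSK.

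Across libraries the 10 genes did not move as 1 block. Over the 10 libraries of the CD93 experiment, Pearson correlations of log2(RPKM + 1) between pairs of the genes ran from 0.22 (H2-Eb1 with H2-Oa) to 0.997 (H2-DMb1 with H2-DMb2, which share sequence). Over the 6 libraries of the drug experiment they ran from 0.277 (H2-Aa with Ciita) to 0.974 (Cd74 with H2-DMa). Ciita correlated with H2-Aa at 0.417 and with H2-Ob at 0.866 in the CD93 experiment. These are descriptions over points that share their groups and their depth.

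The 8 genes whose pattern was most like the mean of Cd74, H2-Aa, H2-Ab1 and H2-Eb1 were taken in each experiment. In the CD93 experiment (10 libraries, 7692 genes averaging at least 5 RPKM) they were Aldh2, Nfu1, Rabepk, Rae1, Mfsd10, Bcat2, Ndufb10 and Ppp1ca, with correlations of 0.957 to 0.976. Aldh2, the mitochondrial aldehyde dehydrogenase, was 442.4, 56.9 and 23.7 RPKM in KO LSC and 183.3, 188.3 and 412.4 RPKM in WT LSC, and 640.4 to 799.9 RPKM in LSK cells. In the drug experiment (6 libraries, 8921 genes) they were Mir6240, Dyrk1a, Acvr1b, Atl3, Fryl, Hells, Plek and Ctnnd1, with correlations of 0.992 to 0.996. No listed class II helper or regulator was among the 8 of either experiment. How often so short a selection would miss such lists was not computed, so nothing is read from this absence. Plek, a substrate of protein kinase C, was 20.2, 10.9 and 19.1 RPKM in MCP and 38.0, 38.5 and 33.3 RPKM in Veh LSCs. Of the 100 most alike genes in each experiment only Sptlc2, a subunit of the enzyme that starts sphingolipid synthesis, was in both lists, with correlations of 0.913 and 0.975. How many genes unrelated lists of this size would share was not computed, so nothing is read from this gene.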

How the data were processed

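Per the labels, bulk RNA of sorted marrow cells was amplified with SMART-Seq v4. The 16 libraries were grouped by title; for the drug samples a source field names LSK and the title LSC. Nothing states that replicates come from separate animals, so a p-value may reflect spread that is only technical. The authors deposited RPKM, a unit inferred here from the numbers themselves; the submitters' processing notes name the builds GRCm38 and mm10, while the aligner, the counter and the gene models were not given in the sources used. The members and the 11 gene lists (132 genes) were chosen with earlier results of these data known.

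Values were fitted as log2(RPKM + 1) with limma 3.58.1 in R 4.3.3 (trend, 1 mean per group, two-sided, Benjamini-Hochberg over all tested genes, threshold 0.05), the 10 libraries of the CD93 experiment in 1 model and the 6 of the drug experiment in another. A gene needed 1 RPKM or more in 2 or more libraries to be tested, which 13485 and 14005 reached. The script was tested on simulated data. Where all libraries of a group stood at the lowest value no fold is given, except that of Ciita in WT LSC against WT LSK under quantile normalization, which changed sign there and is no bound. Named genes were the members, up to 4 passing genes per list by smallest p, fixed partners (RFX and NF-Y subunits, Ctss, H2-Ea, H2-Eb2, Mif, Cd44, Nlrc5) and the most alike genes; others were chosen after their values were seen, as neighbours or markers. Other settings tried: quantile normalization; a pseudocount of 0.1; no filter; a replicate block; only the compared groups; each library left out in turn. Leaving KO LSC out of the fit and a crossed block were added after the data were seen. Gene positions are from GENCODE M21 on GRCm38 and promoter sequences from RefSeq, GRCm38.p6. Depth is unknown for 9 libraries, so no counting interval is given.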

Additional observations from a re-analysis of the deposited data

Results flagged for a closer look

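Psmb9, an immunoproteasome subunit encoded beside the class II genes, had KO libraries on opposite sides of the WT libraries in the 2 cell types, and only the LSC difference passed the test. Psmb9 was 0.003, 0.003 and 0.560 RPKM in the libraries labelled KO LSC, against 88.8, 157.2 and 24.3 RPKM in WT LSC, a log2 difference of -5.94 (SE 0.84, adjusted p = 0.00294 by limma), a call that ended under quantile normalization (adjusted p = 0.332). In LSK cells it was 880.2 and 917.6 RPKM in KO and 810.2 and 676.7 RPKM in WT, a log2 difference of 0.28 (SE 1.02, adjusted p = 1 by limma), and 14% of all tested genes had this order without overlap. Every KO LSC library lay below its WT libraries, as for 14.1% of all tested genes, and every KO LSK library lay above. The LSC difference minus the LSK difference was -6.21, and this difference was not tested. The KO LSC libraries had 1230 to 2967 features above the lowest value and the WT LSC libraries 5525 to 7956, and the part of that was not tested.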

How the results depend on the processing

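The 10 class II genes stayed lower in MCP than in Veh LSCs under every alternative run, with a median log2 difference of -0.88 under quantile normalization, where that of all genes was -0.005. In WT LSC against WT LSK, Ciita turned to 0.30 under quantile normalization; Ciita was at the lowest value in all WT LSC libraries, and the cause was not tested.

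Counts of genes called moved by more than 1.5 times as follows, first over all genes and then over the surrounding lists. For KO against WT LSK, 247 genes became 15 and 3 list genes became 1 under quantile normalization, 418 genes were called with no filter, 5 and 0 with the replicate block, 5 and 0 with the crossed block, 0 and 0 with only the compared groups in the fit, and 0 and 0 with the KO LSC libraries left out of it (772 and 713 genes at an unadjusted p under 0.05, and 10 and 6 list genes, in these last fits). For WT LSC against WT LSK, 5905 genes became 2919 (1351 higher and 1568 lower, against 196 and 5709) and 59 list genes became 30 under quantile normalization. For KO against WT LSC, 6 list genes became 1 under quantile normalization, and 1188 genes called (10 higher and 1178 lower) became 1307 (562 higher and 745 lower). For MCP against Veh, 10 list genes became 5 with no filter; with the replicate block 325 genes became 39 and 10 list genes became 1.

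Leaving out 1 library gave 964 to 2065 genes and 7 to 12 list genes for KO against WT LSC, the highest gene count without WT LSC library 3. It gave 357 to 943 genes and 3 to 7 list genes for KO against WT LSK. For WT LSC against WT LSK it gave 4502 to 6455 genes and 42 to 62 list genes. For MCP against Veh it gave 25 to 406 genes and 1 to 13 list genes, with 46, 79 and 25 genes without Veh library 1, 2 and 3. A left-out LSK library leaves 1 in its group, which is assumed to vary like the other groups.

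The replicate numbers do not pair the samples: deviations of same-numbered libraries correlated between -0.02 and 0.03, and at -0.28 in the LSK comparison, where the crossed pairing was therefore added. KO LSC and WT LSC values rest on few features above the lowest value, so a gene at the lowest value there was not detected, which does not show it to be absent.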
